A study of Mus musculus with 6 samples.

Results

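The cytosolic ribosomal protein genes of the mouse were described in embryos at embryonic day 12, in 3 wild type samples and 3 Tmem216-/- samples of strain C57BL/6. The labels name the source as embryo and give no treatment. They leave unsaid whether whole embryos or dissected tissue were used and whether the samples are separate animals, so p-values cover only a spread that may be technical. The design text names the transcriptomes of Tmem216+/+ and Tmem216-/- embryos as the comparison. Tmem216 encodes a protein of the transition zone, the gate at the base of the primary cilium. The genes were taken by name from the deposited table: Rpl or Rps followed by a number and at most one of the letters a, l, x or y, together with Rplp0, Rplp1, Rplp2 and Rpsa, with names of pseudogenes (-ps) left out. This gave 83 of the 56359 rows, 51 named for the large subunit and 32 for the small subunit. All values are TPM, a level per transcript length that sums to the same total in each sample.

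Ribosomes read messenger RNA and join amino acids into protein. Each is built from a small subunit, which decodes the message, and a large subunit, which forms the peptide bond, and each subunit holds ribosomal RNA and a set of small, mostly basic proteins, nearly all of them in equal numbers. The genes of these proteins are among the most strongly expressed in growing tissue. Their messages begin with a run of pyrimidines, the TOP motif, through which the mTOR kinase pathway sets their translation, and reverse transcription of these messages has left many processed copies in the genome, intron-free duplicates that are mostly pseudogenes. Several ribosomal protein genes also carry small nucleolar RNAs (snoRNAs), the guides of ribosomal RNA modification, inside their introns.

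The starts of the genes named for the highest and the lowest listed level are shown first, since these genes span the range of listed levels. A low listed level need not be low once the processed copies described below are added. Rps12 had a mean of 63.1 TPM in its own row and 4085 TPM with copies. Rpl12, Rpl27a, Rpl5 and Rps13 also had more of their summed level in copies than in their own rows. Each line gives 15 bases before and 15 bases from the annotated start, on the gene's strand, 5′ to 3′, from RefSeq on GRCm38.p6, with the longest run of C and T in capitals. Genes with several listed starts are shown at the start with the longest run. The first 6 belong to genes with the highest listed levels, Rpl13a at chr7:45128731-45128760 (minus strand), Rpl41 at chr10:128549154-128549183 (minus), Rps27 at chr3:90213634-90213663 (minus), Rps15a at chr7:118116133-118116162 (minus), Rps15 at chr10:80292416-80292445 (plus) and Rpl27 at chr11:101442230-101442259 (plus).
Rpl13a: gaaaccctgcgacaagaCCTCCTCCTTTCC
Rpl41: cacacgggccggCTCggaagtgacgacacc
Rps27: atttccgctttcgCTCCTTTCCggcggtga
Rps15a: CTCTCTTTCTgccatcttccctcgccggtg
Rps15: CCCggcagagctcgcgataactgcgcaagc
Rpl27: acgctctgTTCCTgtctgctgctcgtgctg
The next 6 belong to genes with the lowest listed levels above 1 TPM, Rps13 at chr7:116334176-116334205 (minus), Rpl27a at chr7:109519180-109519209 (plus), Rps27l at chr9:66946071-66946100 (plus), Rpl5 at chr5:107900513-107900542 (plus), Rpl12 at chr2:32961697-32961726 (plus) and Rps12 at chr10:23787195-23787224 (minus).
Rps13: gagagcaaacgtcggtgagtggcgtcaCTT
Rpl27a: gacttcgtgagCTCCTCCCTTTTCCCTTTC
Rps27l: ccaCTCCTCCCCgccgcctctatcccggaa
Rpl5: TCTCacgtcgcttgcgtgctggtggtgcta
Rpl12: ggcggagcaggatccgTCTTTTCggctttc
Rps12: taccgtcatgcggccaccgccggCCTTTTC
Rplp1, Rpl23a, Rps20 and Rps4l had no entry. Within the 30 bases shown, the run was 13 bases in Rpl13a, 19 in Rpl27a, and 3 in Rpl41, Rps15 and Rps13. Runs that touch an end of their line may continue beyond it, so their lengths are minimum values. This holds for Rpl13a, Rps15a, Rps15, Rps13, Rpl27a, Rpl5 and Rps12. Long runs thus occurred at both ends of the listed levels. The shortest runs at the lower end, in Rps13 and Rpl5, touch the end of their line, so their full lengths are not known here.

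Over all starts listed for these genes, 73 starts of 61 genes, a run of 7 or more pyrimidines on the gene's strand within 20 bases either side of the start was found in 40 (54.8%), against 24.3% of all 32851 starts in the RefSeq table. The letters CTCTTTC, themselves such a run, were found on either strand of the 300 bases around the start in 27.4% of the ribosomal protein starts and 8.16% of all starts. CCGGAAGT, the core bound by ETS factors such as GABP, was found in 16.4% and 3.89%. The E box CACGTG was found in 11.0% and 7.15%, and TATAAA in 9.59% and 13.6%. These are matches of letters only. The genes shared a second feature that the choice by name did not use: of the 78 with enough signal to be tested, 29 (37.2%) held at least 1 annotated snoRNA on the same strand, against 1.61% of all 16411 genes tested. They held 56 snoRNAs in all, with 5 in Rpl4. The 83 genes lay on 19 chromosomes, with 14 on chromosome 7, 4 on the X chromosome and none on chromosome 19.

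The second set of sequences shows how closely processed copies match their genes, so that a short read often fits both and the row of a single ribosomal protein gene is uncertain. Each pair gives the first 90 bases of the coding sequence of a gene and the aligned bases of a processed copy elsewhere in the genome (GENCODE vM21, GRCm38), with capitals where the copy differs. Rps2 lies at chr17:24718116-24721929 (plus strand) and Rps2-ps13 at chrX:52898588-52899469 (plus). Rps18 lies at chr17:33951999-33956001 (minus) and Gm10260 at chr13:97760072-97760632 (minus). Rps7 lies at chr12:28630854-28635953 (minus) and Gm6472 at chrX:152909505-152910155 (minus). Rpl3 lies at chr15:80077791-80091868 (minus) and Rpl3-ps1 at chrX:13202571-13203780 (plus). Rpl21 lies at chr5:146832890-146837032 (plus) and Gm10163 at chr9:88390837-88391317 (plus).
Rps2: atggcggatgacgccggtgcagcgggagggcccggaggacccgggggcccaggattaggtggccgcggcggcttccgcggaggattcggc
Rps2-ps13: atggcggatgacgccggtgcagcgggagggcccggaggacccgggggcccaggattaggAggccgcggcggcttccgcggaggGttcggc
Rps18: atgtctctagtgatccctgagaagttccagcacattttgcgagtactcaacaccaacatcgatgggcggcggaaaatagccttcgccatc
Gm10260: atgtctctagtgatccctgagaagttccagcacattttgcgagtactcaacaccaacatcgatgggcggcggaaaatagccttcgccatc
Rps7: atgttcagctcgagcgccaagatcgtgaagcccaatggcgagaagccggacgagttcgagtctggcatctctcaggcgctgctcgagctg
Gm6472: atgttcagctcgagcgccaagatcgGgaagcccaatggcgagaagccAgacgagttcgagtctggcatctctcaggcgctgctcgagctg
Rpl3: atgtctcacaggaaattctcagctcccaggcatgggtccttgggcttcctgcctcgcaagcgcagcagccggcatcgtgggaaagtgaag
Rpl3-ps1: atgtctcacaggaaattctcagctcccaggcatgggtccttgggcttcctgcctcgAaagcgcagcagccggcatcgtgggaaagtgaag
Rpl21: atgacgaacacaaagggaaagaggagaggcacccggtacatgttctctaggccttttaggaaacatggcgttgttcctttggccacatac
Gm10163: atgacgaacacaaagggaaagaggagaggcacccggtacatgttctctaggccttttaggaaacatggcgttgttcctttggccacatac
In this stretch Rps2-ps13 and Gm6472 each differed from their gene at 2 bases and Rpl3-ps1 at 1 base, while Gm10260 and Gm10163 did not differ. Over the whole aligned coding sequence the copies were 99.2% (Rps2-ps13), 99.1% (Gm10260), 99.5% (Gm6472), 99.8% (Rpl3-ps1) and 99.6% (Gm10163) identical to their genes.

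Tmem216 itself was at 31.0, 30.7 and 17.4 TPM in wild type samples 1, 2 and 3, and its values in Tmem216-/- samples 1, 2 and 3 were 2.25, 0.51 and 1.39 TPM. The groups did not overlap, and the log2 fold change was -3.55 (SE 0.34, adjusted p = 0.0266, limma with Benjamini-Hochberg adjustment). This call was lost when any sample other than Tmem216-/- replicate 1 was left out, with adjusted p of 0.0551 to 0.196. Other cell types moved between the samples too. The 14 heart muscle genes summed to 42.8 to 64.7 TPM in the wild type samples against 901 to 2370 TPM in Tmem216-/- samples, with 13 of 14 raised at an adjusted p under 0.05. That count was 0, 2 and 0 without wild type 1, 2 or 3, 12, 7 and 1 without Tmem216-/- 1, 2 or 3, and 0 with no filter on low values, while the groups of all 14 stayed apart in each of these fits. Over all genes, 14.2 to 32.8% had groups without overlap when a sample was left out, and 7.74% with no filter. The 14 hepatocyte genes summed to 230 to 2780 TPM in wild type and 135 to 1178 TPM in Tmem216-/- samples, with 0 of 14 changed, and 8 haemoglobin genes to 36812 to 44007 and 27801 to 56493 TPM, with 0 of 7 changed. None of the genes of these 3 lists, whether tested or not, was at 0 in every sample. Red cell, skeletal muscle, neuron, neural progenitor, macrophage and cycling cell markers had 0 of 13, 12, 12, 9, 9 and 10 tested genes past an adjusted p under 0.05 (limma). The macrophage markers summed to 86.8 to 92.6 TPM in the wild type samples against 69.5 to 77.5 TPM in the Tmem216-/- samples. Of these markers, 4 of 9 tested were lower without overlap, against 4.83% of all genes. An unadjusted p under 0.05 by limma was reached by 2 of 9, against 4.46% of all genes. All 13 red cell markers had log2 fold changes below 0, and their groups overlapped. Their part in the values below was not tested, and in these bulk samples fewer cells of a type and less RNA per cell cannot be told apart.

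The 83 ribosomal protein genes together held 15.2, 14.2 and 14.8% of all TPM in wild type samples 1, 2 and 3 and 14.0, 15.8 and 14.6% in Tmem216-/- samples 1, 2 and 3. The wild type values lay within the range of the Tmem216-/- values, with means of 14.7% ± 0.487 and 14.8% ± 0.888 (SD, n = 3 each). The large subunit genes took 7.90 to 8.86% of all TPM and the small subunit genes 6.06 to 6.89% over the 6 samples. Of the 100 genes with the highest mean level in the table, 44 were ribosomal protein genes, and 75 were among the highest 500.

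A gene was tested where it reached 1 TPM in at least 3 of the 6 samples, which held for 78 of the 83. Their mean levels ran from 63.1 TPM for Rps12 to 6459.6 TPM for Rpl13a, a 102-fold range, with a median of 1863 TPM. Most were close together, with 60 of the 78 above 1000 TPM and 18 below. Coding length had no visible relation to the level across 77 genes with a coding sequence (Spearman rho -0.01, a description across genes). The median was 1471 TPM for the 46 large subunit genes tested and 2033 TPM for the 32 small subunit genes. With the near-identical copies described below added, these medians were closer, at 1996 and 2257 TPM.

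**Figure D1:**
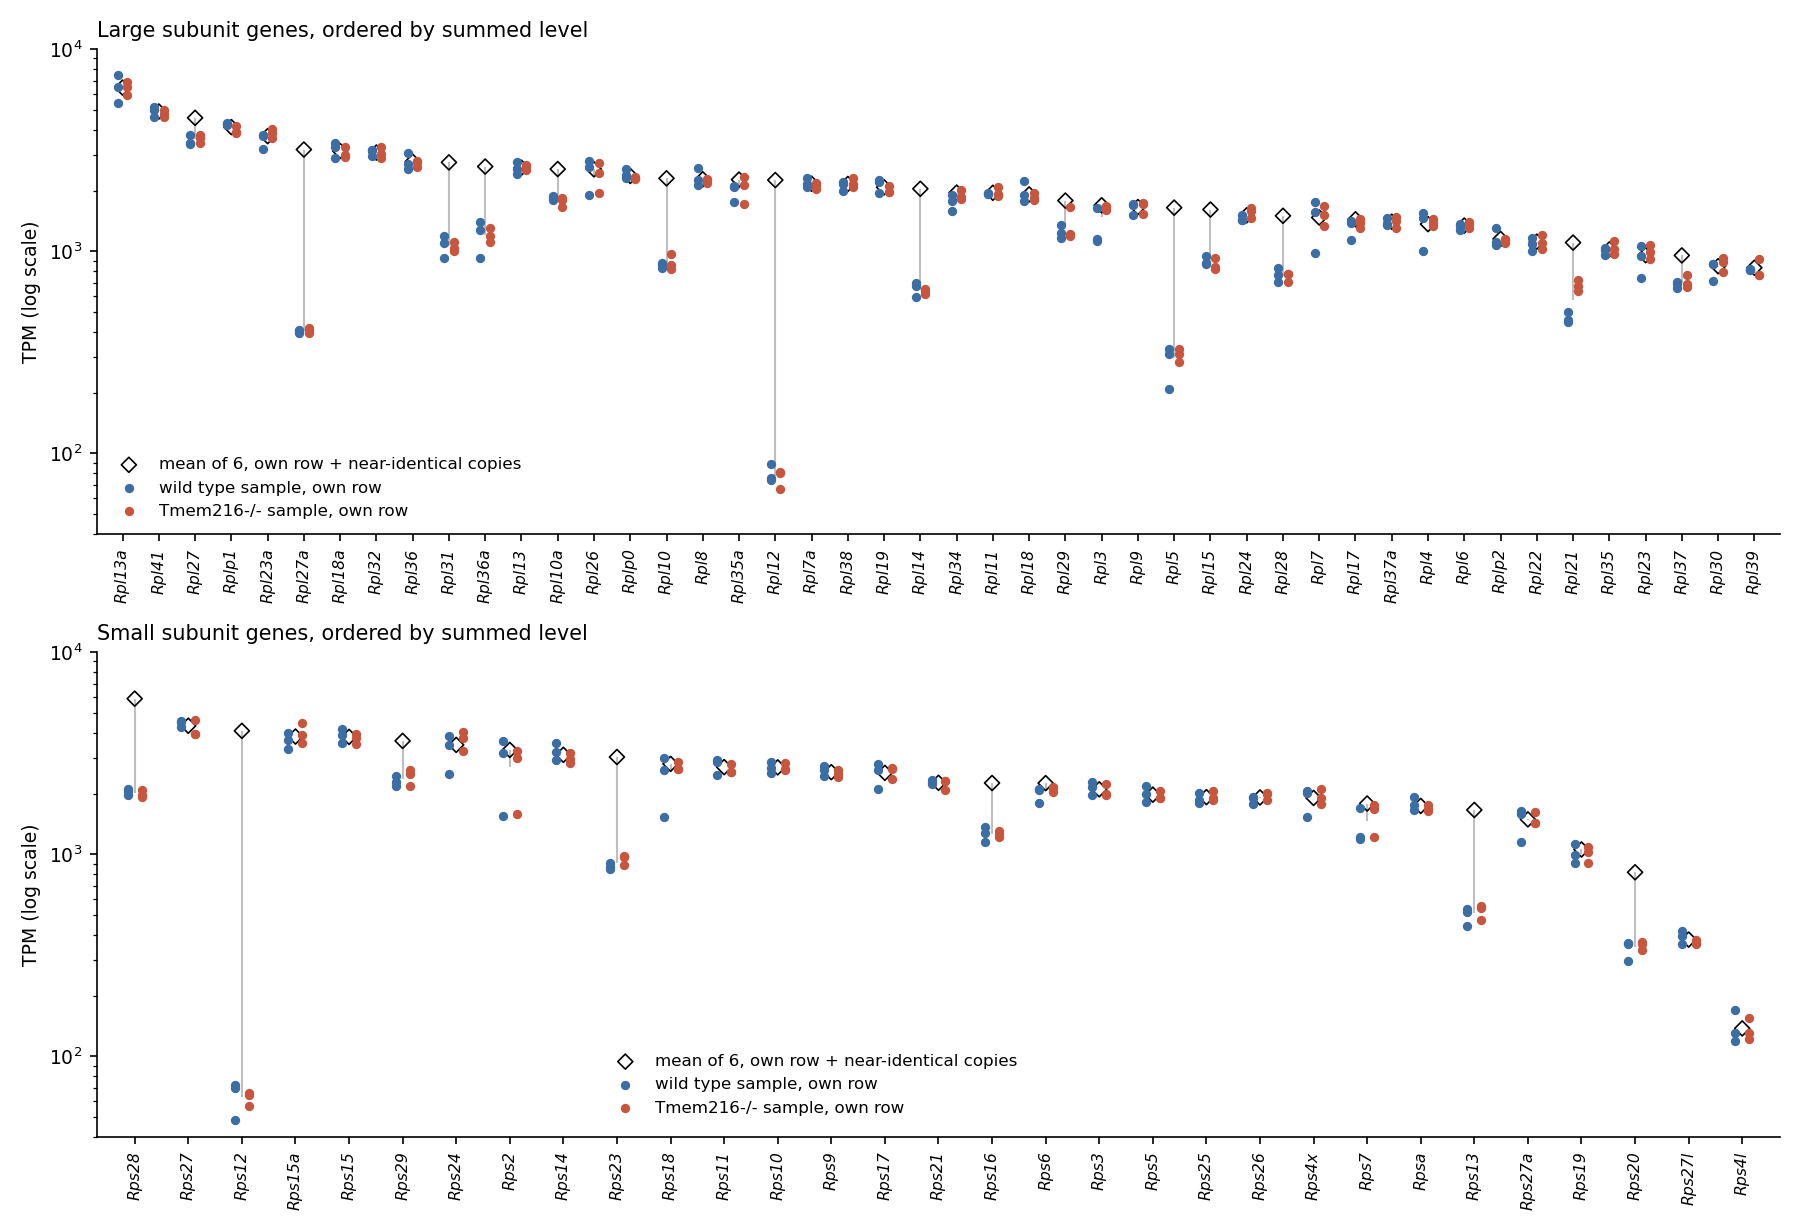
Level of 77 of the 78 tested ribosomal protein genes in TPM (log scale), for 46 large subunit genes (top) and 31 small subunit genes (bottom). Blue points are the 3 wild type samples and red points the 3 Tmem216-/- samples for the gene's own row, diamonds are the mean over 6 samples after the rows of near-identical copies were added, and grey lines join the mean of the own row to the diamond. Long grey lines mark genes such as Rps12 and Rpl12, whose own rows lay below 100 TPM.

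At the top of the list stood Rpl13a, a large subunit protein at the surface of the ribosome, with 6536, 5424 and 7481 TPM in wild type samples 1, 2 and 3 against 5963, 6864 and 6489.7 TPM in Tmem216-/- samples 1, 2 and 3 (the same order is used from here on). Rpl41, the smallest ribosomal protein with a coding sequence of 75 bases, had 5029, 4619 and 5170.0 TPM in the wild type samples against 4609.6, 5012 and 4798 TPM in the Tmem216-/- samples. Rps27, a zinc finger protein of the small subunit, had 4501, 4249 and 4593 TPM against 3923, 4611 and 3959 TPM. In each of these 3 genes the ranges of the groups overlapped, and wild type 2 was the lowest wild type sample. Rplp1 followed with 4305, 4232 and 4279 TPM in the wild type samples against 3884, 4181 and 3829 TPM in the Tmem216-/- samples, with every wild type sample above every Tmem216-/- sample by a small margin. The other genes of the highest 8, Rps15a, Rps15, Rpl23a and Rpl27, had means of 3823, 3813, 3702 and 3577 TPM, with coefficients of variation (CV, the SD over the mean of all 6 samples) of 10.5, 6.60, 7.78 and 4.60%.

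The stalk of the large subunit, which recruits elongation factors, is made of Rplp0 and pairs of the acidic proteins Rplp1 and Rplp2. Rplp0 had 2374, 2315 and 2565 TPM in the wild type samples against 2277, 2331 and 2298 TPM in the Tmem216-/- samples. Rplp2 had 1118, 1079 and 1303 TPM against 1102, 1154 and 1136 TPM. Both were highest in wild type 3 and their groups overlapped. Among the 3 stalk genes Rplp1 was thus the highest and Rplp2 the lowest in every sample. Rpsa, a small subunit protein that was also described as a laminin receptor, had 1754, 1657 and 1919 TPM against 1635, 1755 and 1686 TPM, with overlapping groups.

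At the other end, the own rows of 8 genes were the lowest above 1 TPM: Rps12, Rpl12, Rps4l, Rpl5, Rps20, Rps27l, Rpl27a and Rps13. For 6 of these 8, near-identical copies held more of the summed level than the gene's own row, in sums not weighted by length. Rps12, a small subunit protein, was listed at 72.4, 69.8 and 48.7 TPM in the wild type samples against 64.6, 65.8 and 57.1 TPM in the Tmem216-/- samples. Its copy on chromosome 19, Rps12-ps3, whose sequence is 100% identical over the coding sequence and which the annotation calls protein coding, was listed at 4316, 4361 and 3318 TPM against 3797, 4182 and 4034 TPM. In both rows wild type 3 was the lowest sample and the groups overlapped. Rpl12, which lines the factor-binding region of the large subunit, was listed at 73.8, 88.6 and 75.4 TPM against 79.7, 66.5 and 80.8 TPM. Its identical copy Gm10275 on chromosome 10 had 2168, 2234 and 2091 TPM against 2116, 2266 and 2173 TPM. The groups overlapped in both rows, and the copy exceeded the gene in every sample.

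Rpl27a, a large subunit protein, was listed at 407, 404 and 395 TPM in the wild type samples against 396, 419 and 409 TPM in the Tmem216-/- samples, the smallest CV of all 78 genes (2.23%). Its identical copy Gm7536 on chromosome 3 had a mean of 2779.8 TPM. Rpl5, which with Rpl11 and a ribosomal RNA forms the particle that binds Mdm2, was listed at 309.6, 329 and 209 TPM against 285, 329.8 and 312 TPM. Its identical copy Gm15500 on chromosome 7 had 1331, 1503 and 951 TPM against 1278, 1559.6 and 1473 TPM. Wild type 3 was the lowest sample in both rows of Rpl5, and the groups overlapped. Rps20 and Rps13, both small subunit proteins, had means of 348 and 512 TPM, with 57.3 and 69.1% of their summed level in copies. The copies of Rps27l, a p53-responsive paralogue of Rps27, were at 0 TPM. Rps27l had 416, 394 and 359 TPM against 365, 377 and 361 TPM. Rps4l had 130.3, 119 and 169.6 TPM against 122, 154 and 130.0 TPM. Rps4l is annotated as a transcribed processed pseudogene with no coding sequence, although its name passes the rule, so it was not searched for copies. Its groups overlapped, as did those of Rps27l.

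Because of these pairs, each gene was also described with its copies, a step chosen after the data had been seen. A copy was any other gene of the table with a transcript that matched at least 80% of the coding sequence at 90% identity or more, and each copy went to the gene it matched best. This rule also took in genes that are not processed copies by annotation, with their whole TPM. Gins1, a protein coding gene with a mean of 45.9 TPM, entered for Rpl41 through 75 aligned bases at 93.3% identity. BC004004, also protein coding, entered for Rpl21 at 98.5% identity, with 48.0 to 59.0 TPM in each sample. Rps4l, Rpl6l and Rpl32l have no coding sequence and were not searched, which left 77 of the 78 tested genes. In all 977 copies were found for 75 of the 83 genes, and 434 of them were at 0 TPM in every sample. Only 101 reached a mean of 1 TPM and 34 a mean of 100 TPM, yet the copies together held 3.31% of all TPM. For 12 genes the copies held over 50% of the summed level, and for 43 of the 77 under 1%. These shares are of plain sums of TPM. In the sum weighted by length, described below, the copies of Rps20, Rps28, Rpl36a and Rpl31 each held less than the gene's own row. With copies added, the ribosomal protein genes took 18.5, 18.0 and 17.8% of all TPM in wild type and 17.2, 19.0 and 17.9% in Tmem216-/- samples, and the groups overlapped.

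Adding the copies to the 77 searched genes narrowed the range of levels from 102-fold to 17.1-fold and gave a median of 2154 TPM. Only 6 of them then lay below 1000 TPM. Rps12 came to a mean of 4085 TPM, Rpl27a to 3189.8 TPM and Rpl12 to 2253 TPM. Rps28, a small subunit protein, went from 2015 to 5892 TPM through Gm10443 on chromosome 6, which had 3851, 3365 and 3892 TPM in the wild type samples against 3890.4, 4282 and 3946 TPM in the Tmem216-/- samples. The lowest summed levels among them were those of Rps27l at 379 TPM and Rps20 at 815 TPM. A sum of TPM counts a short copy at its own length. With each row weighted by its listed length relative to that of the gene, the mean was 1473 TPM for Rpl27a, 1189.7 TPM for Rpl12, 391 TPM for Rps20, 3879 TPM for Rps28 and 4378 TPM for Rps12, and the range was 17.1-fold. How the reads of a gene and its copies were shared out between their rows was not tested.

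Over the 6 samples the ribosomal protein genes varied little. The median CV of their own rows was 6.86%, against 16.4% for all 16411 genes tested, 10.3% for the 1493 tested genes with a mean of 100 TPM or more, and 8.04% for 78 mitochondrial ribosomal protein genes. The CV was under 10% in 57 of the 78 genes and over 15% in 9. The 6 largest belonged to Rps2, Rpl21, Rps18, Rpl7, Rps7 and Rpl3, and in 4 of these the own row and a copy moved in opposite steps.

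Rps2, a small subunit protein near the entry of the message channel, was listed at 3180.1, 1552 and 3644 TPM in the wild type samples against 3007, 3237 and 1590.2 TPM in the Tmem216-/- samples. Its copies summed to 30.6, 1690.3 and 21.6 TPM against 21.5, 24.2 and 1721 TPM. Wild type 2 and Tmem216-/- 3 were low in the own row and were the only samples above 31 TPM in the copies, mostly in Rps2-ps13 (1013 and 1000.2 TPM) and Rps2-ps10 (669.9 and 712 TPM). The summed level was 3211, 3242 and 3665 TPM against 3028, 3261 and 3312 TPM, and the CV fell from 33.3 to 6.37%.

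Rps18, a protein of the head of the small subunit, was listed at 3004, 1530.4 and 2616 TPM in the wild type samples against 2635, 2869 and 2642 TPM in the Tmem216-/- samples. Its copies held 1494 TPM in wild type 2, of which Gm10260 had 1331, and at most 7.64 TPM in each of the other samples. The own row was low only in wild type 2, the groups overlapped, and the CV went from 20.5% to 6.77% with the copies added. Rps7, a small subunit protein, had 1686, 1217 and 1195 TPM against 1223, 1747 and 1676 TPM. Its copy Gm6472 had 2.06, 651 and 684 TPM against 608, 0.00 and 0.33 TPM. The samples thus fell into 3 with a high own row and almost no copy and 3 with a low own row and a high copy, in both genotypes. The CV of Rps7 went from 18.5% to 5.05% in the sum and to 1.70% in the sum weighted by length.

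Rpl3, which sits near the peptidyl transferase centre, was listed at 1149, 1634 and 1129 TPM in the wild type samples against 1606, 1675 and 1645 TPM in the Tmem216-/- samples. Its copy Rpl3-ps1 had 658, 0.00 and 643 TPM against 0.00, 0.64 and 0.02 TPM. The copy was high in wild type 1 and 3 only, the same samples in which Rpl3 was low. The summed level was 1807, 1635 and 1773 TPM against 1606, 1676 and 1645 TPM, with a CV of 4.79% after 17.6%. The same pairing of a low own row with a high copy was seen in genes picked after their values were seen: Rpl35a in wild type 2 and Tmem216-/- 1 (1761 and 1723 TPM, with 719 and 704 TPM in its copies) and Rpl34 in wild type 2 (1585 TPM, with 754 TPM in its copies). The sum of Rpl34 was highest in wild type 2, at 2340 TPM against 1780 to 2019 TPM in the other samples. Its CV thus rose from 7.90 to 10.6%, and it was 5.29% in the sum weighted by length. Rpl26 was low in Tmem216-/- 1 (1937 TPM) with 855 TPM in its copy Gm15772, but as low in wild type 3 (1898 TPM) with 3.56 TPM in its copies. Rpl29 showed the reverse, a high own row of 1666 TPM in Tmem216-/- 2 with 6.51 TPM in its copies, against 542 to 593 TPM of copies in the other samples. The identical copies Gm11518 and Rpl27-ps3 of Rpl27 were listed at the same TPM as each other in 5 of the 6 samples.

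**Figure D2:**
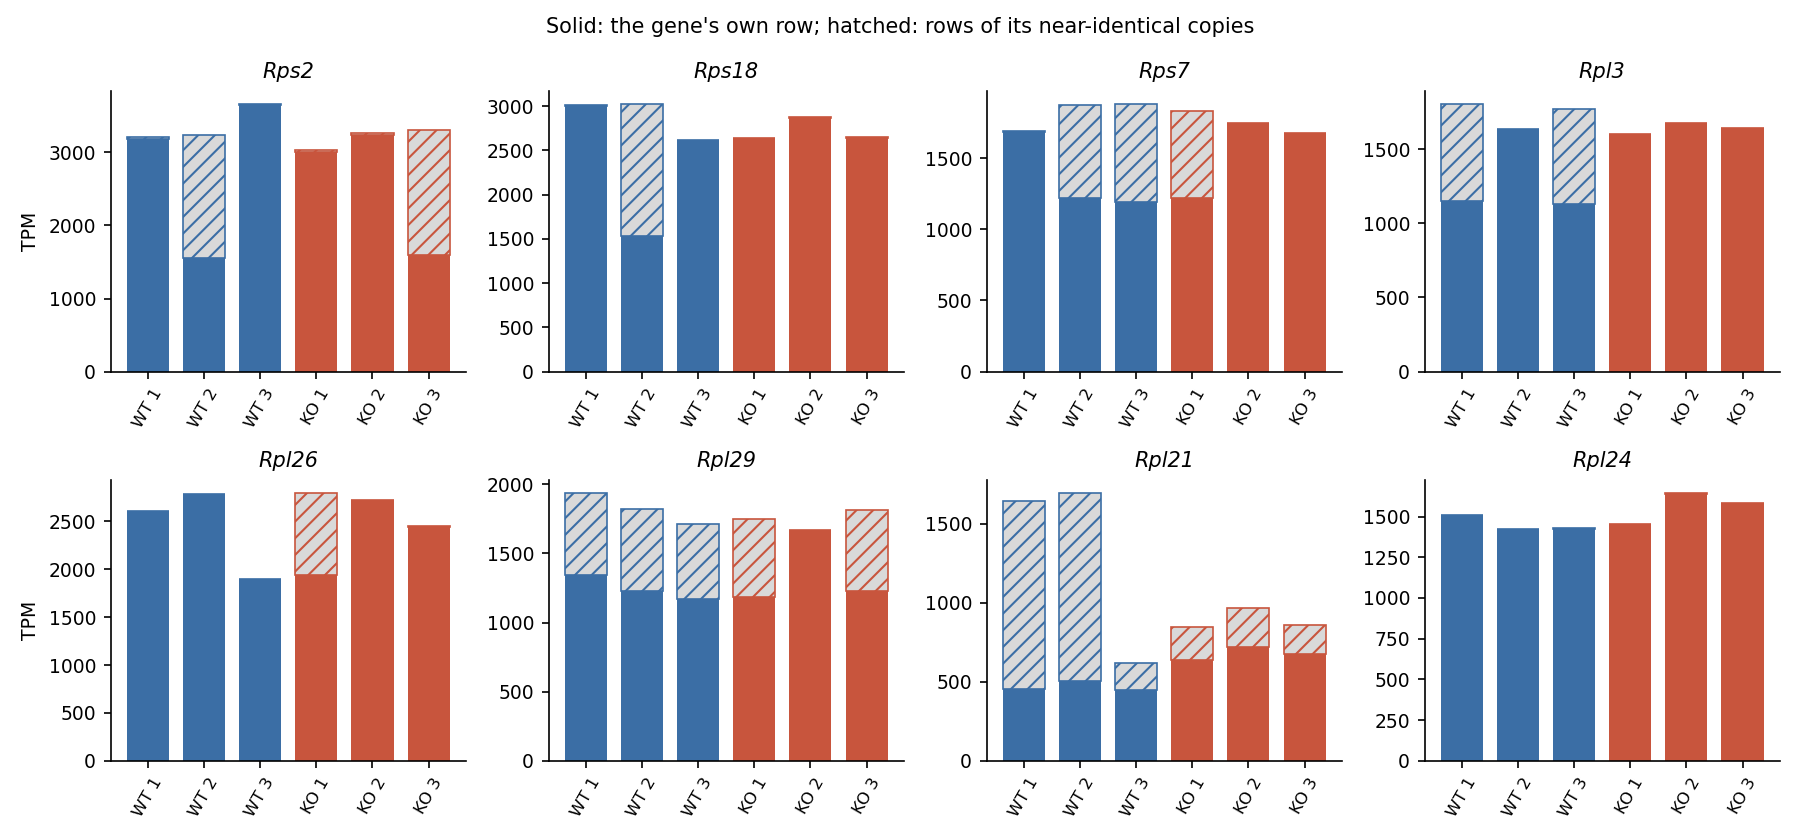
TPM of 8 genes in each sample (WT, wild type; KO, Tmem216-/-), with the gene's own row as a solid bar and the summed rows of its near-identical copies hatched on top. In Rps2, Rps18, Rps7, Rpl3 and Rpl29 the total is more even than the solid bars, in Rpl21 it is less even, and Rpl24 is shown as a gene whose copies hold under 5 TPM.

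Rpl21, a large subunit protein, was the exception among the 6. Its own row had 455, 503 and 448 TPM in the wild type samples against 639, 722 and 674 TPM in the Tmem216-/- samples. Its 77 copies summed to 1186, 1190.0 and 172 TPM against 207, 247 and 187 TPM, with Gm10163 at 368, 422 and 35.4 TPM against 23.8, 0.02 and 32.3 TPM. The own row separated the genotypes, while the copies were high in wild type 1 and 2 and low in wild type 3 and in every Tmem216-/- sample. The summed level was 1641, 1693 and 620.3 TPM against 846, 969 and 861 TPM, so the CV rose from 20.8 to 40.7%, and it was 19.8% in the sum weighted by length.

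Rpl7, a large subunit protein, was the remaining gene of the 6, and its copies held at most 1.29 TPM in any sample. It had 1567, 1752 and 977 TPM in the wild type samples against 1328, 1678 and 1515 TPM in the Tmem216-/- samples. Wild type 3 was the lowest, below all others. Rps24, a small subunit protein, had 3490.4, 3841 and 2511 TPM against 3248, 4018 and 3756 TPM, and Rpl4 (chosen after its values were seen) had 1469, 1555 and 1006 TPM against 1337, 1443 and 1375 TPM. Again wild type 3 was the lowest sample. These genes have coding sequences of 47.4, 46.1 and 50.4% GC. Among genes of high GC, Rpl13a (55.8%), Rpl18 (59.2%) and Rpl8 (58.8%, chosen after its values were seen) were highest in wild type 3, at 7481, 2221 and 2578 TPM. Other genes, also chosen after their values were seen, went otherwise. Rps29 (59.5%) was lowest in wild type 3, at 2173 TPM, and Rplp1 (58.2%) and Rps28 (57.0%) were highest in wild type 1. Rpl39, of low GC (45.1%), was lowest in Tmem216-/- 3.

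The coding GC of 77 ribosomal protein genes ran from 44.9 to 61.6%. Across these genes, with copies added, the deviation of wild type 3 from the mean of the 6 samples was larger at higher GC (Spearman rho 0.70), and that of wild type 2 and Tmem216-/- 2 was smaller (rho -0.60 and -0.54). The values for wild type 1, Tmem216-/- 1 and Tmem216-/- 3 were -0.22, -0.02 and -0.20. Over all 13873 tested genes with a coding sequence, each by its own row without copies, rho was 0.60 in wild type 3. It was -0.43 in wild type 2 and -0.26 in Tmem216-/- 2. In wild type 1, Tmem216-/- 1 and Tmem216-/- 3 it was 0.06, -0.14 and -0.25. In wild type 3 the 25 genes of lowest GC lay at a median log2 deviation of -0.21 and the 25 of highest GC at 0.11. All points of a sample share its library, and these correlations are descriptions across genes. The 6 samples also differed in the class as a whole: 62, 26 and 39 of the 78 genes lay above their own mean in wild type 1, 2 and 3, and 7, 73 and 42 in Tmem216-/- 1, 2 and 3. Haemoglobin was at 43211, 44007 and 36812 TPM and at 56493, 27801 and 49073 TPM in the same order. The lowest and the highest haemoglobin fell in the samples with the most and the fewest genes above their mean, but the samples between did not follow that order. The part of haemoglobin and of GC content in the levels was not tested.

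**Figure D3:**
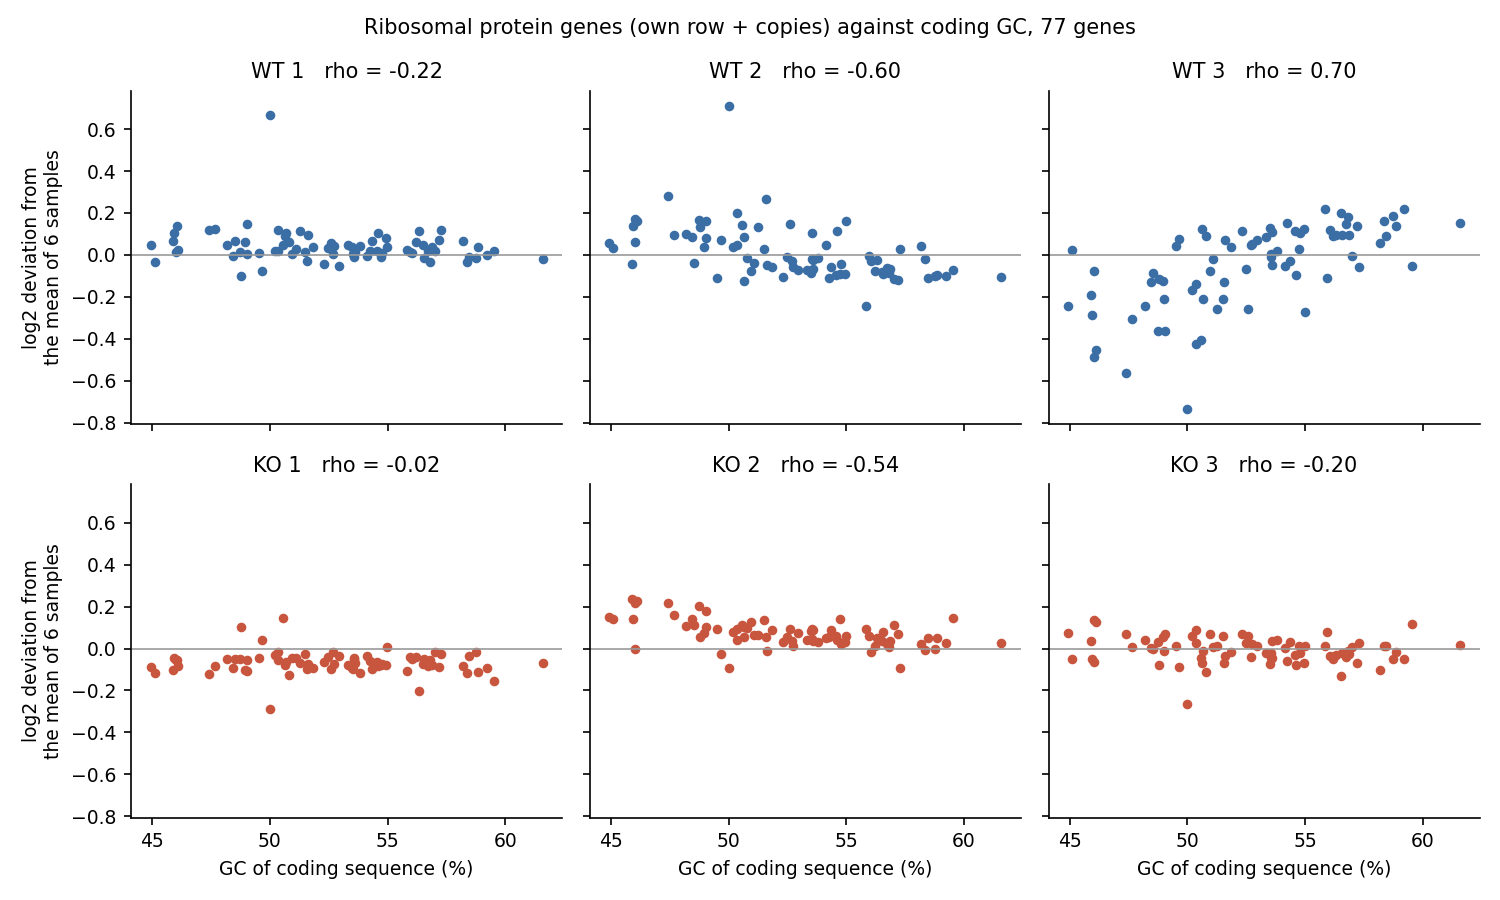
Log2 deviation of each of 77 ribosomal protein genes, own row and copies added, from its mean over the 6 samples, against the GC content of its coding sequence in percent, with 1 panel per sample (WT, wild type; KO, Tmem216-/-). Spearman's rho is given above each panel and is 0.70 in wild type 3, where genes of low GC lie below the line and genes of high GC above it.

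Between the genotypes, no ribosomal protein gene passed the test. With limma on log2(TPM + 1) and Benjamini-Hochberg adjustment over all 16411 genes, 0 of 78 passed an adjusted p under 0.05, where 17 of all genes tested did (0.104%), 16 of them higher (0.0975%) and 1 lower (0.00609%) in Tmem216-/- samples. At an unadjusted p under 0.05 it was 1 of 78, against 4.46% of all genes. The wild type and Tmem216-/- values did not overlap in 2 of 78, against 9.57% of all genes, namely Rpl21, which was higher (4.75% of all genes were), and Rplp1, which was lower (4.83%). The smallest p that an exact two-sided permutation test of 3 against 3 can reach for 1 gene is 0.1. Log2 fold changes are given as Tmem216-/- minus wild type. The median over the 78 genes was 0.01, against -0.01 over all genes, with 43 above 0 and 35 below. The absolute log2 fold change was under 0.1 in 62 genes and under 0.2 in 75, with a median SE of 0.10. The large subunit genes had a median of 0.02 and the small subunit genes of 0.00. The count of 17 genes over the whole table was 0, 2 and 1 without wild type 1, 2 or 3 and 27, 9 and 7 without Tmem216-/- 1, 2 or 3. With 2 samples left in a group, more groups fail to overlap by construction. Ribosomal protein genes without overlap numbered 7, 12 and 6 of 78 without wild type 1, 2 or 3, against 14.98, 32.8 and 23.3% of all genes. They numbered 12, 9 and 3 without Tmem216-/- 1, 2 or 3, against 20.5, 14.2 and 14.2% of all genes. The count of ribosomal protein genes past the adjusted threshold was 0 in each.

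**Figure D4:**
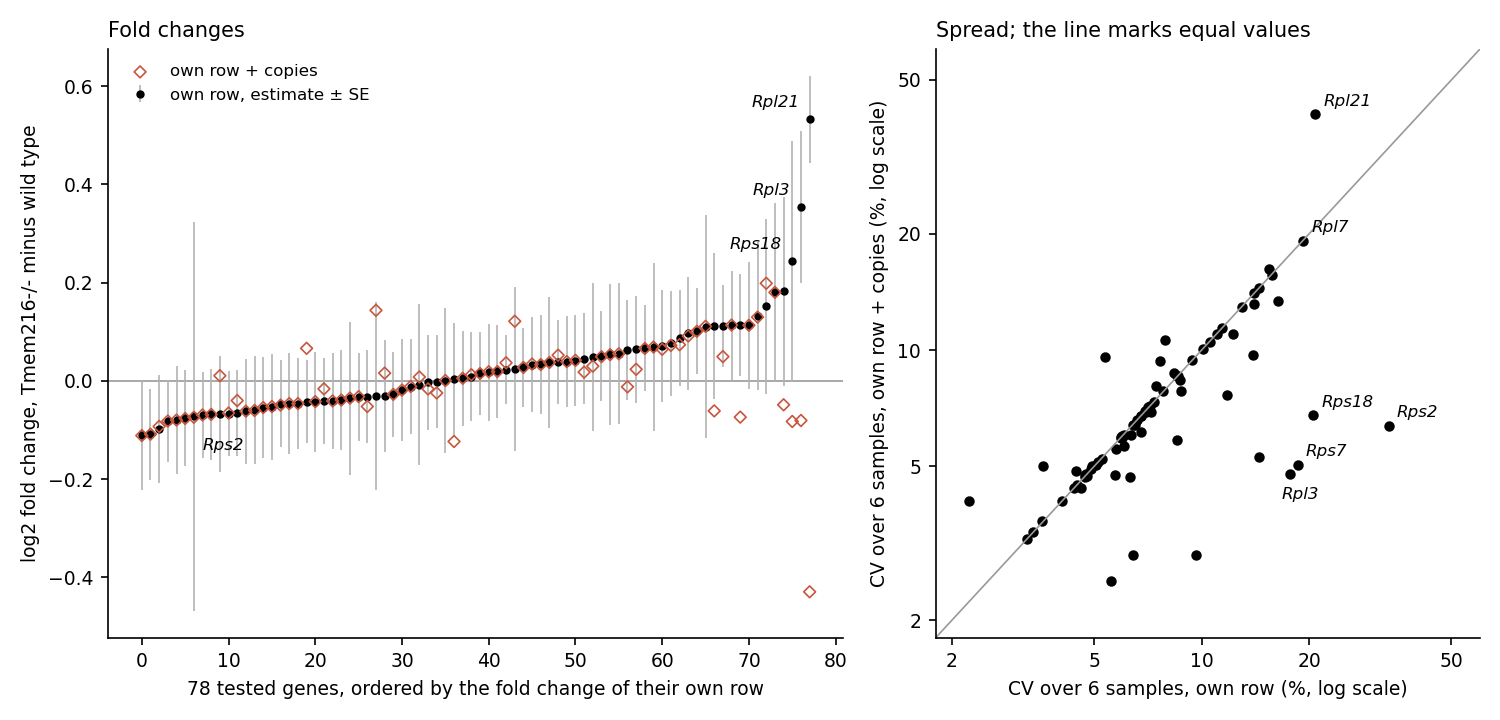
Left, log2 fold change on the log2(TPM + 1) scale of each of the 78 genes between the genotypes, ordered by the own row (black, with its SE), with the value after copies were added as open red diamonds. Right, CV over the 6 samples of the own row and of the sum with copies, both on log scales. Black points at the right of the first panel, Rpl21, Rpl3 and Rps18, have diamonds below 0, and Rps2, Rps18, Rps7 and Rpl3 lie far below the line of equal CV.

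Rpl21 was the gene with the smallest p, at a log2 fold change of 0.53 (SE 0.09, unadjusted p = 0.000621, adjusted p = 0.173, limma with Benjamini-Hochberg adjustment). It was higher in all 3 Tmem216-/- samples. With its copies added the value was -0.43, and -0.06 in the sum weighted by length (adjusted p = 0.983 and 0.987, limma), so the direction turned. Rpl3 was next, at 0.35 for its own row (SE 0.15, adjusted p = 0.983, limma), and -0.08 with copies added. The other genes with the largest differences above 0 were Rps18 at 0.24, Rps7 at 0.18 and Rps24 at 0.18. With copies added Rps18 came to -0.08 and Rps7 to -0.05. Rps18 was at -0.05 without wild type 2, and Rps24 at -0.00 without wild type 3, the sample in which it was lowest.

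The largest differences below 0 in the own rows were smaller. They were those of Rps14, a small subunit protein, at -0.11, Rplp1 at -0.11, Rps27 at -0.10, Rps27l at -0.08 and Rpl18 at -0.08. Rps14 had 3206, 2928 and 3555 TPM in the wild type samples against 2947, 3181 and 2826 TPM in the Tmem216-/- samples, and Rpl18 had 1909, 1779 and 2221 TPM against 1786, 1940.2 and 1844 TPM. Both pairs of groups overlapped. Rps23, a small subunit protein of the decoding centre, and Rpl24, a large subunit protein at the bridge between the subunits, had the smallest p after Rpl21 and Rpl3. Rps23 had 911, 866 and 845 TPM against 886, 984 and 966 TPM, with a log2 fold change of 0.11. Rpl24 had 1509, 1424 and 1423 TPM against 1457, 1641 and 1581 TPM, with 0.10. Neither passed (adjusted p = 0.983 for both, limma), and the groups of both overlapped.

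With copies added, 77 of the 78 genes had an absolute log2 fold change under 0.2, and the median was 0.00. An unadjusted p under 0.05 by limma was reached by none of the 78, against 723 of the 16322 genes tested in that fit. Rps2, the gene of the largest CV, had a log2 fold change of -0.07 with an SE of 0.40 for its own row, the least precise of the 78, and -0.07 with its copies.

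None of the genes known for a role in disease or regulation passed the test. Rps19, the gene most often mutated in Diamond-Blackfan anaemia, had 992, 909 and 1121 TPM in the wild type samples against 911, 1087 and 1027 TPM in the Tmem216-/- samples. Rpl11, the partner of Rpl5 in binding Mdm2, had 1931, 1922 and 1953 TPM against 1886, 2073 and 1916 TPM. Rpl38, whose loss alters the axial skeleton in the Tail-short mouse, had 2158, 1991 and 2214 TPM against 2086, 2298 and 2161 TPM. The groups of all 3 overlapped, with log2 fold changes of 0.00, 0.02 and 0.04 (Rps19, Rpl11 and Rpl38). The copies of Rps19, mostly Rps19-ps6, held 150 and 128 TPM in wild type 1 and 2 and at most 5.25 TPM in the other samples. With copies added Rps19 was at -0.12, and at -0.04 in the sum weighted by length (adjusted p = 0.983 and 0.984, limma). Rpl10, which takes part in the last step of large subunit maturation, had 880.2, 827 and 852 TPM against 819.9, 973 and 855 TPM, beside 1407 to 1464 TPM in its copies. Rps6, the target of S6 kinase, had 2078, 2101 and 1798 TPM against 2045, 2152 and 2138 TPM. Their groups overlapped too, with log2 fold changes of 0.05 for Rpl10 and 0.09 for Rps6.

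The paralogues known from a single adult tissue came next. Rpl3l, the muscle form of Rpl3, had 0.08, 0.17 and 0.07 TPM in the wild type samples against 0.00, 0.00 and 0.14 TPM in the Tmem216-/- samples, also where heart muscle genes summed to 2370 TPM. Rpl10l, the testis form of Rpl10, was listed at 0.30 TPM in wild type 3, 0.18 TPM in Tmem216-/- 1 and 0 in the others. Rpl39l, the testis form of Rpl39, had 0.95, 0.61 and 1.03 TPM against 0.63, 0.29 and 0.49 TPM, while Rpl39 had 809, 819 and 807 TPM against 764, 913 and 762 TPM. In every sample each paralogue was thus near 0 and its partner above 100 TPM. Rpl6l and Rpl32l are annotated as processed pseudogenes and were listed at 0 in all samples except 0.10 TPM for Rpl6l in wild type 3. These are the 5 genes that were not tested. Rps4x, the X-linked form of Rps4, had 2059, 2019 and 1531 TPM against 1781, 2113 and 1898 TPM, with overlapping groups.

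The other genes of the pathway were read from lists. Of 9 ribosomal protein genes that the rule does not take by name, 0 changed. They included Rps3a1 (1586, 1741 and 1079 TPM against 1442, 1671 and 1581 TPM), lowest in wild type 3, and Rack1, a scaffold protein of the small subunit (1402, 1294 and 1524 TPM against 1326, 1399 and 1266 TPM). Of 21 translation factors and other TOP genes, 0 changed, with a median log2 fold change of -0.00. Tpt1, which encodes a tumour protein under TOP control, had 3114, 3053 and 2619.6 TPM against 2890.1, 3566 and 3243 TPM. Of 25 ribosome assembly factors, 0 changed, with 8 above 0, 17 below and a median of -0.08. Bop1, a large subunit assembly factor, had 54.3, 53.0 and 67.0 TPM against 53.2, 46.6 and 49.5 TPM, and its groups overlapped. Of 9 snoRNA host genes, 0 changed, with 8 below 0 and a median of -0.08. Of 78 mitochondrial ribosomal protein genes, 0 changed, with a median of -0.06, 1 at an unadjusted p under 0.05 and 11 whose groups did not overlap, 2 higher (4.75% of all genes) and 9 lower (4.83%). Of 300 ribosomal protein pseudogenes by name, 35 were tested and 0 changed, with values from -4.66 for Rps19-ps6 (149, 124 and 1.79 TPM against 0.00, 0.56 and 1.07 TPM) to 1.99 for Rpl21-ps15 (6.44, 1.81 and 23.1 TPM against 34.5, 23.0 and 35.6 TPM). Every count in this paragraph is at an adjusted p under 0.05 by limma. The counts at an unadjusted p under 0.05 were 0 in the first 4 lists and 3 in the pseudogenes.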

How the data were processed

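RNA sequencing of 3 wild type and 3 Tmem216-/- embryo samples was analysed from the authors' deposited table, which gives the TPM of each gene in each sample and a listed gene length. The submitters' processing notes name CASAVA 1.8, HISAT2, StringTie, RSEM and the mm10 build, without their roles. TPM keeps no read numbers, so the depth behind a value is unknown and tests made for counts were not run. A further 2 numeric columns of the table were left out. The ribosomal protein genes and the lists beside them were chosen with earlier results of these data known. Genes with at least 1 TPM in at least 3 samples were tested on log2(TPM + 1) with limma 3.58.1 (lmFit and eBayes with trend, R 4.3.3), two-sided, and p-values were adjusted by the Benjamini-Hochberg method over all 16411 genes. Fold changes on this scale understate those of low genes. Tested on simulated data for the same comparison and 16411 genes, the fit recovered 60, 82, 92 and 98% of 50 genes each changed 2, 4, 8 and 16-fold, and 2 of 168 calls were false. The simulation had 200 changed genes, none of them from the lowest levels, and noise drawn independently for each gene and sample. The measured data gave 17 calls and had deviations shared by many genes of a sample, so these rates may not hold for them.

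Genes described sample by sample were the 8 highest and 8 lowest by mean level, the 5 with the largest fold change each way, the 4 with the smallest p, the 6 with the largest CV, paralogue pairs, the stalk genes, Rpsa, Tmem216 and a set known from disease or regulation. Other genes were picked after their values were seen and are named as such or appear as copies. Copies were found after the values were seen, by a BLAST 2.17.0 search of the coding sequences of 80 genes against GENCODE vM21 transcripts. Sequences at gene starts came from RefSeq. Protein sequences were planned and not used here. Further steps used Python 3.11.15, pandas 2.3.3, scipy 1.17.1 and matplotlib 3.10.9. In all, 17 other settings and 2 chosen after the data were seen were run. The values of 1 tested gene are not reported here by name, and it enters only the counts and sums.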

Additional observations from a re-analysis of the deposited data

How the results depend on the processing

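The count of ribosomal protein genes past the adjusted threshold (limma, Benjamini-Hochberg) was 0 under all 19 alternatives, and the adjusted p of Rpl21 ran from 0.142 to 0.987. The median log2 fold change was -0.03 to 0.05 when each sample was left out in turn. Over all genes the count of 17 became 0 with no filter on low values and 0 to 27 when each sample was left out. The count of ribosomal protein genes whose groups did not overlap, 2 as reported, was 1 with median-of-ratios scaling, 5 with quantile scaling, 1 after rescaling without ribosomal protein genes, 1 with copies added, 1 with copies weighted by length and 3 to 12 when each sample was left out. The share of all genes was 9.58 to 9.77% in the first 5 of these and 14.2 to 32.8% when each sample was left out. The log2 fold change of Tmem216 was -4.31 with a pseudocount of 0.1 (adjusted p = 0.0667, limma), -2.27 with a pseudocount of 5 (adjusted p = 0.0404, limma), -3.55 with no filter (adjusted p = 0.0874, limma) and -3.81 to -3.25 when each sample was left out, and past the threshold under the other 10 alternatives. The count of 13 heart muscle genes was 9 with a pseudocount of 5. With copies added and with copies weighted by length, the log2 fold change turned to -0.429 and -0.0647 in Rpl21, -0.0806 and -0.0434 in Rpl3, -0.0825 and -0.0832 in Rps18, and -0.0486 and -0.00915 in Rps7. When each sample was left out, Rps18 ran from -0.0472 (without wild type replicate 2) to 0.439, Rps24 from -0.000574 (without wild type replicate 3) to 0.306 and Rpl18 from -0.150 to 0.0102 (without wild type replicate 3). The cause was not tested, except that adding copies changes the rows by construction. The correlations of same-numbered samples, as deviations from their group means, were 0.02, -0.09 and 0.10, and those of other pairs -0.15 to 0.14. With 3 samples in a group, these values cannot decide whether the replicate numbers pair the samples. With the replicate block, 25 genes of all changed, 0 of the ribosomal protein genes did, and Rpl21 had an adjusted p of 0.518 (limma). The haemoglobin list has no value after rescaling without its genes.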
